A study of Mus musculus with 8 samples.

Results

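The genes described here are 9 kinases that carry the signal of the LPS receptor through the MAP kinase cascade, out of 21080 genes with a value in each of the 8 samples. They are the MAP kinase kinase kinases Map3k7 (TAK1) and Map3k8 (TPL2, also called COT), the MAP kinase kinases Map2k3 (MKK3) and Map2k6 (MKK6), the MAP kinases Mapk3 (ERK1), Mapk8 (JNK1), Mapk9 (JNK2) and Mapk14 (p38α), and the kinase Mapkapk2 (MK2). They were chosen by symbol, with no threshold on their values but with earlier results of these data known, and all 9 had coverage above 0 in every sample. The cells were BMDMs, which are macrophages obtained by culturing bone marrow of C57BL/6 mice with M-CSF. WT samples came from sex-matched littermates that carried LysM Cre, so Cre was present in every group. Nudt21-cKO samples came from Nudt21 fl/fl LysM Cre mice, in which Cre made in myeloid cells cuts out exons 2 and 3 of Nudt21. WT and cKO BMDMs were sequenced without stimulation (0 h), and after priming with 50 ng/ml IFNγ overnight and then 4 h of 50 ng/ml LPS (4 h). There were 2 samples in each of the 4 groups, numbered 1 and 2 for WT and 3 and 4 for cKO, and each sample pooled BMDMs of 2 mice. The ages of the mice are not given in the sources used here.

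LPS is sensed by TLR4, which through TRAF6 activates TAK1. TAK1 phosphorylates the MAP kinase kinases for p38 and JNK, while TPL2, which is held in a complex with the NF-κB1 precursor p105 until that protein is degraded, phosphorylates those for ERK. MKK3 and MKK6 act on p38, and p38α activates MK2, which stabilises cytokine mRNAs by phosphorylating tristetraprolin (Zfp36). In macrophages ERK, JNK and p38 together control the production of TNF and other cytokines. These kinases are regulated mainly by phosphorylation, so an mRNA level is not a measure of their activity. Nudt21 (CFIm25) binds UGUA in nascent RNA and takes part in the choice of the polyadenylation site, which sets the length of the 3'UTR.

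The motif read by Nudt21 was looked for in the annotated 3'UTR of each kinase, because these windows are where the protein that is deleted could contact the transcripts. For each gene the coding transcript matched to RefSeq with the longest 3'UTR was taken. The search was for TGTA on the transcript strand of the GENCODE M21 annotation of GRCm38. It was found in the last 100 bases before the annotated transcript end of 6 of the 9 kinases, and in 53.5% of 17824 genes with a 3'UTR of at least that length. For 4 of the 6, the last such site is shown in a window of 30 bases, 5′ to 3′, with TGTA in capitals. The Mapk9 window is at chr11:49886381-49886410 on the plus strand, in the 3'UTR part of exon 12. The Map3k7 window is at chr4:32023428-32023457 on the plus strand, in exon 16. The Mapk14 window is at chr17:28748324-28748353 on the plus strand, in exon 12. The Mapkapk2 window is at chr1:131053728-131053757 on the minus strand, in exon 10.
Mapk9: caaactgtctctaTGTAtatgtctaaaagc
Map3k7: aaggcgtaatttaTGTAcaataaacttcat
Mapk14: ttgtgaacttggcTGTAatctggtatgcca
Mapkapk2: taaactctcgtttTGTAtgagcaaaattgt

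The 3'UTRs differed widely in how often TGTA occurred. Mapk8 had 39 in 4410 bases, more than 98.2% of genes, Mapk9 had 23 in 3263 bases and Map3k7 had 21 in 3786 bases. Map2k6 had 1 in 918 bases and Mapk3 and Map2k3 had 3 each. Relative to length Map3k8 was the highest of the kinases, with 13.3 per kb against a median of 5.04 per kb over all genes. No exon of a kinase gene overlapped an exon of another annotated gene. A match of 4 letters is a description of the sequence and does not show a bound site, and the polyadenylation sites used in these cells were not analysed here.

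The deletion was seen in all cKO samples. Nudt21 coverage was 718 and 641 in WT against 158 and 172 in cKO at 0 h, and 547 and 575 in WT against 142 and 115 in cKO at 4 h. Coverage is the mean number of reads over each base of a gene's transcript, so it is already per length, and for Nudt21 it includes exons outside the deleted part. The difference relative to the median gene was -2.16 ± 0.10 at 0 h and -2.45 ± 0.16 at 4 h (log2, SE, limma, adjusted p = 0.036 and 0.0453). The deposited coverage is not scaled between samples. Summed over all genes it was 14950300 to 17954900 per sample, but the median-of-ratios factors were 1.40 to 1.58 at 0 h and 0.568 to 0.766 at 4 h, so the median gene lost coverage with stimulation while the sum stayed close. Deposited coverage is therefore given for each sample, and differences are given on the log2 scale after scaling each sample by that factor, which makes them relative to the median gene. Without this scaling, the median gene differed by 0.31 between cKO and WT at 4 h and 0.10 at 0 h, by -1.27 between 4 h and 0 h in WT and by -1.05 in cKO. All 8 macrophage markers were present, with summed coverage of 120530 to 132928 at 0 h and 64070 to 75278 at 4 h. The sum held markers that differed between the genotypes in opposite directions at 0 h. Adgre1 had 20130 and 24458 in WT against 13820 and 14295 in cKO, and Cd68 had 45504 and 42908 against 69414 and 73398. Csf1r, Itgam and Fcgr1 were also lower in cKO and Lyz2 higher, while Cd14 and Mertk overlapped. Cd14 and Fcgr1 rose at 4 h although the sum fell. Whether these shifts bear on the kinases was not tested. Neutrophil markers summed to 22468 and 24380 in WT against 26051 and 34649 in cKO at 0 h. At 4 h they summed to 17504 and 21568 in WT against 21850 and 24872 in cKO. As deposited both cKO samples were thus above both WT samples at each time, and the part of these markers in the results was not tested. Markers of B cells summed to 4.36 or less, of mast cells and basophils to 9.79 or less, of erythroid cells to 10.9 or less, of dendritic cells to 7.71 to 67.2, of fibroblasts to 14.9 to 203 and of endothelial cells to 132 to 617. T cell markers summed to 141 to 198 at 0 h and 15.8 to 24.2 at 4 h. Most of this was Cd4, at 140 to 197 at 0 h and 13.4 to 23.5 at 4 h. Cd3e, Cd3g and Cd8a were at most 2.40 in any sample. The 8 genes used to check the stimulation, such as Il6 and Nos2, rose in both genotypes and summed to 1022 to 1200 at 0 h and 753104 to 950097 at 4 h.

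Before stimulation Mapk3 was the most abundant of the kinases in coverage and Map2k6 the least. In WT at 0 h the order from the top was Mapk3, Mapkapk2, Mapk14, Map2k3, Mapk9, Map3k7, Map3k8, Mapk8 and Map2k6, and in cKO it was the same. Neighbours in this order did not overlap between their samples in either genotype. At 4 h Mapkapk2 was at the top in both genotypes. In WT it was followed by Map2k3, Map3k8 and Mapk3, of which Map3k8 and Mapk3 overlapped, and in cKO by Mapk3, Map2k3 and Map3k8, which did not overlap. Mapk14 had dropped to the seventh place in both genotypes, and in WT it overlapped with Mapk8 below it. Ranked among all genes, Mapk3 was above 98.0% of genes in WT at 0 h and above 91.7% at 4 h, while Map3k8 went from 67.4% to 92.4%.

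**Figure D1:**
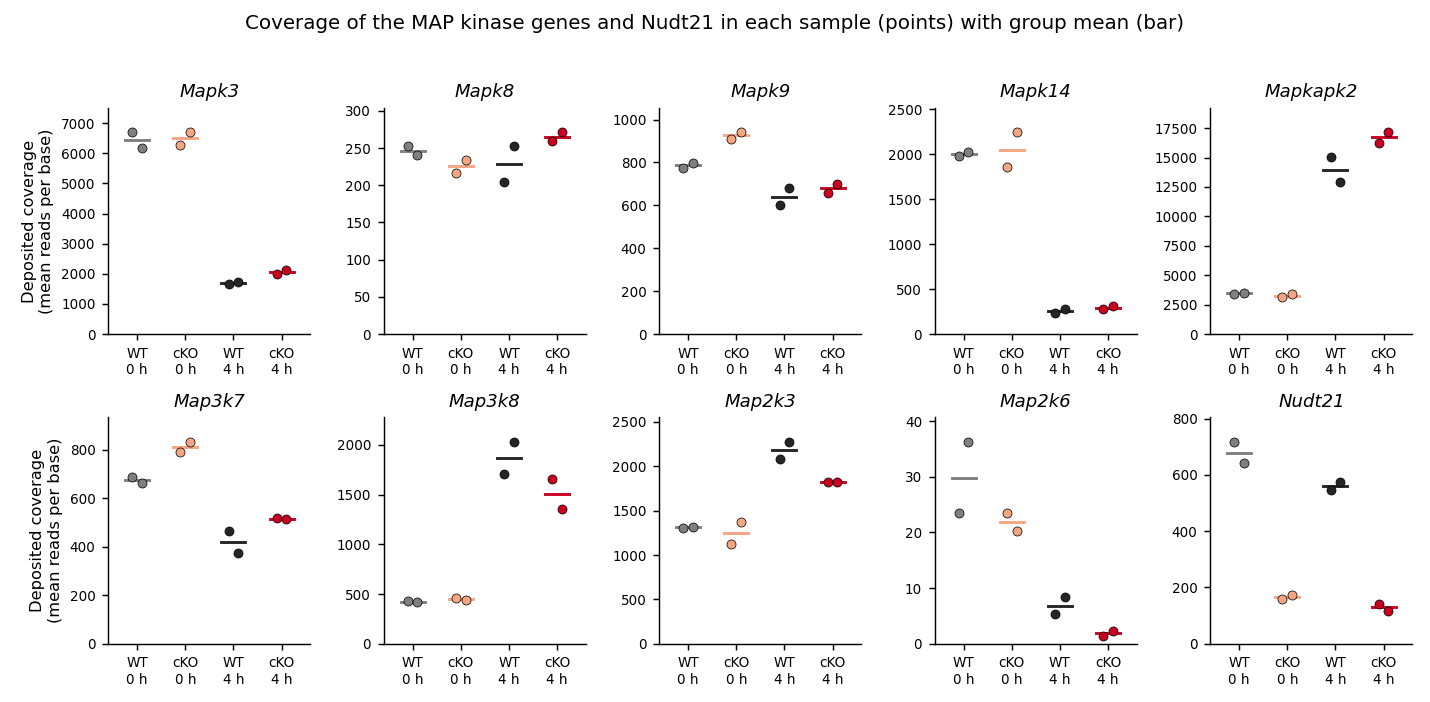
Deposited coverage (mean reads per base, linear axes from 0) of the 9 kinases and Nudt21 in each sample. Points are samples and bars are the means of the 2 samples in each group. Mapkapk2, Map3k8 and Map2k3 are higher at 4 h than at 0 h in every sample, and Mapk3, Mapk14, Map2k6, Mapk9 and Map3k7 are lower.

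The genotypes were compared at 4 h to ask which kinases differed in stimulated macrophages without Nudt21. Map2k6 and Map3k8 were lower in cKO and no kinase was higher, so 2 of 9 passed a fold change above 1.5 with an unadjusted p under 0.05. Of all 15371 genes tested, 19.5% passed, 10.3% higher and 9.27% lower (20.8% and 4.17% on the deposited scale). None of the 9 passed an adjusted p of 0.05, which 1.55% of all genes did. When all 4 groups shared 1 limma fit, Map2k6, Map3k8 and Map2k3 passed it (adjusted p = 0.0177, 0.0286 and 0.0177), and so did 20.4% of all genes. With a filter at a mean scaled coverage of 5 Map2k6 passed it (limma, adjusted p = 0.0468), as did 9.56% of genes. Map2k6 met this filter only through its WT samples, so this call adds no separate support. The median difference of the 9 was -0.13, against -0.01 over all genes, and on the deposited scale it was 0.19 against 0.31.

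Map2k6, the p38 kinase kinase, had coverage of 5.29 and 8.33 in WT at 4 h and 1.43 and 2.32 in cKO. Every cKO sample was below every WT sample, at the lowest levels of any kinase in the set. It was 4.42-fold lower in cKO, a log2 difference of -2.14 ± 0.34 (SE, limma, adjusted p = 0.0949). It was -1.81 and passed on the deposited scale. Without WT sample 2 it was -1.92 and did not pass. The number of reads behind these low values is not known.

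Map3k8, the kinase kinase kinase for ERK, had 1710 and 2032 in WT at 4 h and 1660 and 1352 in cKO. The groups did not overlap, but WT sample 1 and cKO sample 3 were close. It was 1.56-fold lower in cKO, at -0.64 ± 0.15 (SE, limma, adjusted p = 0.132). The difference was -0.32 on the deposited scale, -0.53 with equal summed coverage and -0.57 with quantile normalization, and it passed under none of these. Without WT sample 1, WT sample 2 or cKO sample 4 it was -0.66, -0.62 and -0.49 and did not pass either.

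Map2k3, the second p38 kinase kinase, had 2083 and 2277 in WT at 4 h and 1827 and 1823 in cKO. Both cKO samples were below both WT samples and were nearly equal. The difference was -0.58 ± 0.10 (SE, limma, adjusted p = 0.0992), or 1.49-fold, just under the fold required. Without WT sample 2 it was -0.62 and passed. As deposited the difference was -0.26, and its unadjusted p was above 0.05.

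The other 6 kinases did not pass at 4 h, and the sign of their differences depended on the scaling. Mapk3 had 1654 and 1723 in WT against 1995 and 2138 in cKO. Mapk8 had 205 and 253 in WT against 259 and 272 in cKO. Mapk9 had 602 and 681 in WT against 660 and 700 in cKO. These were higher or overlapping in cKO as deposited, yet each was below 0 relative to the median gene, at -0.03 for Mapk3, -0.10 for Mapk8 and -0.24 for Mapk9. Mapk14 had 237 and 281 in WT against 274 and 316 in cKO. Mapkapk2 had 15054 and 12899 in WT against 16270 and 17162 in cKO. Map3k7 had 466 and 375 in WT against 518 and 512 in cKO. Relative to the median gene the differences were -0.13 for Mapk14, -0.06 for Mapkapk2 and -0.02 for Map3k7, and on the deposited scale they were 0.19, 0.26 and 0.30. The 95% interval for Map3k7, whose TGTA window is given above, ran from -0.76 to 0.72, and that for Mapkapk2 from -0.70 to 0.58. As deposited, the groups did not overlap for 7 of the 9 kinases, 4 with cKO above WT and 3 below, and for 64.8% of all genes.

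**Figure D2:**
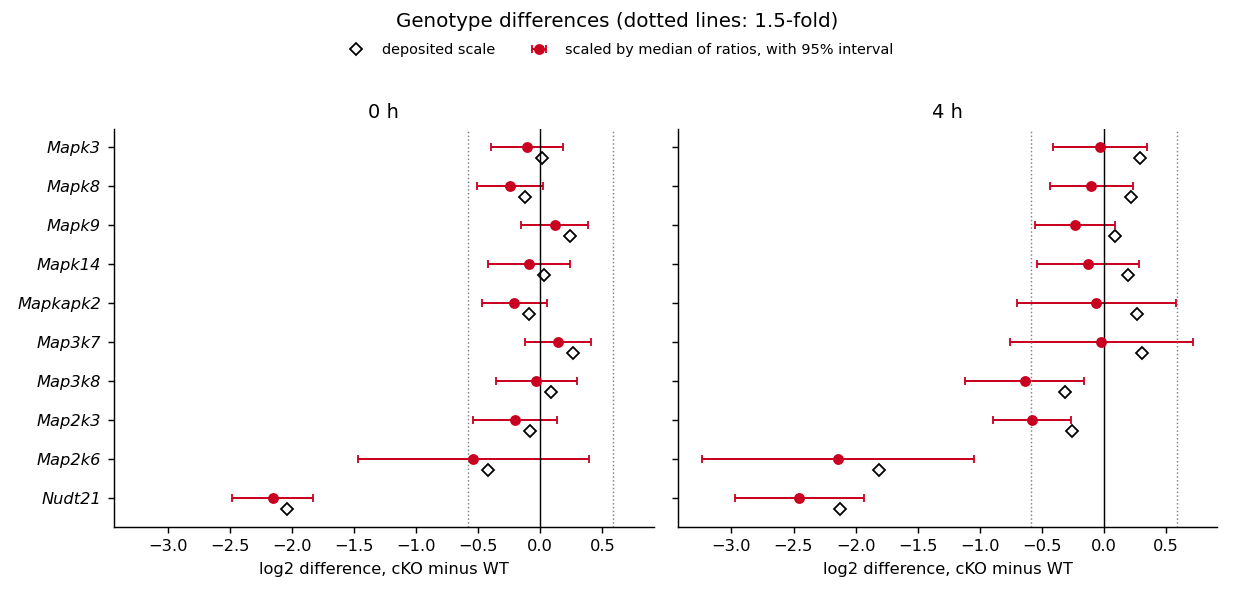
Log2 difference between cKO and WT for the 9 kinases and Nudt21 at 0 h (left) and 4 h (right). Red points with bars are values scaled by the median of ratios with the 95% interval from limma, and open diamonds are values on the deposited scale. At 4 h Map2k6, Map3k8 and Map2k3 lie below 0 on both scales, and the other 6 kinases change sign between them.

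At 0 h none of the 9 kinases passed the same threshold, against 14.5% of 15756 genes, 6.98% higher and 7.51% lower (8.99% and 5.61% on the deposited scale). None passed at an unadjusted p under 0.05 alone, and none at an adjusted p of 0.05, which 1.22% of genes did (limma). The differences ran from -0.54 for Map2k6 to 0.15 for Map3k7. Map3k7, or TAK1, had 688 and 662 in WT against 790 and 832 in cKO. Mapk9 had 775 and 798 in WT against 911 and 942 in cKO. Of the 9 kinases, Map3k7 and Mapk9 were above 0 under each of the 4 scalings tried and the others were not, at 0.15 ± 0.08 and 0.12 ± 0.09 (SE). Mapk8 had 252 and 241 in WT against 217 and 235 in cKO, so the JNK genes lay in opposite directions at 0 h, at -0.25 ± 0.08 for Mapk8 (limma, adjusted p = 0.227).

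Map3k8 had 434 and 415 in WT at 0 h and 457 and 444 in cKO, so the genotypes lay close before stimulation, at -0.03 ± 0.10. Map2k3 had 1307 and 1321 in WT against 1124 and 1369 in cKO, where the samples overlapped. Map2k6 had 23.4 and 36.3 in WT against 23.5 and 20.2 in cKO, with cKO sample 3 level with the lower WT sample and cKO sample 4 below it. Mapk3 had 6696 and 6188 in WT against 6283 and 6707 in cKO, and its groups overlapped. Mapk14 had 1981 and 2022 in WT against 1856 and 2247 in cKO, and here too they overlapped. Mapkapk2 had 3405 and 3516 in WT against 3126 and 3379 in cKO, at -0.21 ± 0.08 (limma, adjusted p = 0.265). As deposited, the groups did not overlap for 5 of the 9 kinases and for 58% of all genes.

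Whether the genotype difference itself changed with stimulation was tested with an interaction term fitted to the 8 samples. It passed for Map2k6 and Map3k8, 2 of 9 kinases, both lower in cKO at 4 h than the 0 h difference would give. Of 16122 genes 15.8% passed, 8.83% higher and 7% lower (13.5% and 4.05% on the deposited scale). The interaction was -1.61 ± 0.49 for Map2k6 (limma, adjusted p = 0.152) and -0.61 ± 0.18 for Map3k8 (adjusted p = 0.146). Neither passed an adjusted p of 0.05, which 2.71% of genes did. As deposited Map2k6 was at -1.39 and passed. Map3k8 did not pass under any other scaling, at -0.40 as deposited, -0.49 with equal summed coverage and -0.45 with quantile normalization. Mapk9 (-0.35 ± 0.12) and Map2k3 (-0.38 ± 0.13) had an unadjusted p under 0.05 by limma but not the fold. The other 5 kinases lay between -0.17 and 0.15.

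Leaving out a sample changed these calls. Map2k6 did not pass the interaction without WT sample 1 or cKO sample 3 at 0 h, nor without WT sample 2 or cKO sample 3 at 4 h, with values from -1.27 to -1.45. Map3k8 did not pass without WT sample 2 or cKO sample 3 at 0 h, nor without WT sample 2 or cKO sample 4 at 4 h, where it lay between -0.46 and -0.59. The p-values rest on pooled samples of mice and on 2 samples a group, and an exact permutation test of 2 against 2 samples cannot go below p = 0.333.

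Stimulation was compared within each genotype to ask how the kinases responded to IFNγ/LPS with and without Nudt21. Mapkapk2, Map3k8 and Map2k3 rose and Mapk3 and Mapk14 fell in WT and in cKO, and each kept its sign under the 4 scalings tried. In WT 5 kinases passed as higher and 2 as lower, against 54.8% of 15917 genes called, 28.4% higher and 26.4% lower (11.9% and 55.1% on the deposited scale, where 3 kinases passed as higher and 4 as lower). In cKO 4 passed as higher and 3 as lower, against 55.3% of 16028 genes, 28.4% higher and 26.9% lower (13.7% and 53.2% on the deposited scale, where 2 kinases passed as higher and 4 as lower). At an adjusted p of 0.05, 7 kinases passed in WT and 9 in cKO, against 50.1% and 60.6% of genes (limma). With so many genes called, these counts do not set the kinases apart.

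Map3k8 went from 434 and 415 to 1710 and 2032 in WT and from 457 and 444 to 1660 and 1352 in cKO. Relative to the median gene it rose 10.1-fold in WT and 6.64-fold in cKO, at 3.34 ± 0.12 and 2.73 ± 0.15 (SE, limma, adjusted p = 0.0024 and 0.00263). As deposited the rises were 2.13 and 1.73. Mapkapk2 went from 3405 and 3516 to 15054 and 12899 in WT and from 3126 and 3379 to 16270 and 17162 in cKO. It rose by 3.21 ± 0.21 in WT and 3.36 ± 0.07 in cKO (adjusted p = 0.00466 and 0.000889), and at 4 h it stood above 99.1% of genes in WT. Map2k3 went from 1307 and 1321 to 2083 and 2277 in WT and from 1124 and 1369 to 1827 and 1823 in cKO, a rise of 1.93 ± 0.12 and 1.56 ± 0.10. In cKO its rise was 0.56 on the deposited scale and 0.52 with equal summed coverage, just under the fold required.

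Mapk14, the p38α gene, had the largest relative fall of the kinases in deposited coverage in WT, from 1981 and 2022 to 237 and 281, and went from 1856 and 2247 to 274 and 316 in cKO. Relative to the median gene this was -1.75 ± 0.12 in WT and -1.80 ± 0.13 in cKO (SE, limma, adjusted p = 0.00483 and 0.00406), and on the deposited scale -2.96 and -2.79. Mapk3, the ERK1 gene, went from 6696 and 6188 to 1654 and 1723 in WT and from 6283 and 6707 to 1995 and 2138 in cKO, at -0.73 ± 0.14 and -0.65 ± 0.08. So the substrate kinase p38α fell at the mRNA level while its activator Map2k3 and its target Mapkapk2 rose in the same samples. Map2k6 fell from 23.4 and 36.3 to 5.29 and 8.33 in WT, which did not pass at -0.93 ± 0.33 (limma, adjusted p = 0.104), and from 23.5 and 20.2 to 1.43 and 2.32 in cKO, which did at -2.53 ± 0.32 (adjusted p = 0.0114). The fall of Map2k6 in WT was -2.12 on the deposited scale and passed. Without cKO sample 3 at 0 h the fall in cKO was -2.37 and did not pass.

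The direction for Mapk8, Mapk9 and Map3k7 depended on the scaling. Their deposited coverage moved little or fell, with Mapk8 at 252 and 241 before and 205 and 253 after stimulation in WT and 217 and 235 before and 259 and 272 after in cKO. Relative to the median gene Mapk8 rose by 1.09 ± 0.12 in WT and 1.23 ± 0.07 in cKO, and on the deposited scale it was at -0.11 and 0.23. Mapk9 went from 775 and 798 to 602 and 681 in WT and from 911 and 942 to 660 and 700 in cKO, which was 0.91 and 0.55 relative to the median gene and -0.30 and -0.45 as deposited. Map3k7 went from 688 and 662 to 466 and 375 in WT and from 790 and 832 to 518 and 512 in cKO. For Map3k7 the differences were 0.51 and 0.34 relative to the median gene and -0.69 and -0.65 as deposited. These genes thus held their coverage better than the median gene did, and whether their amount per cell rose or fell cannot be told from these values. In bulk samples less RNA per cell and fewer cells cannot be told apart.

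**Figure D3:**
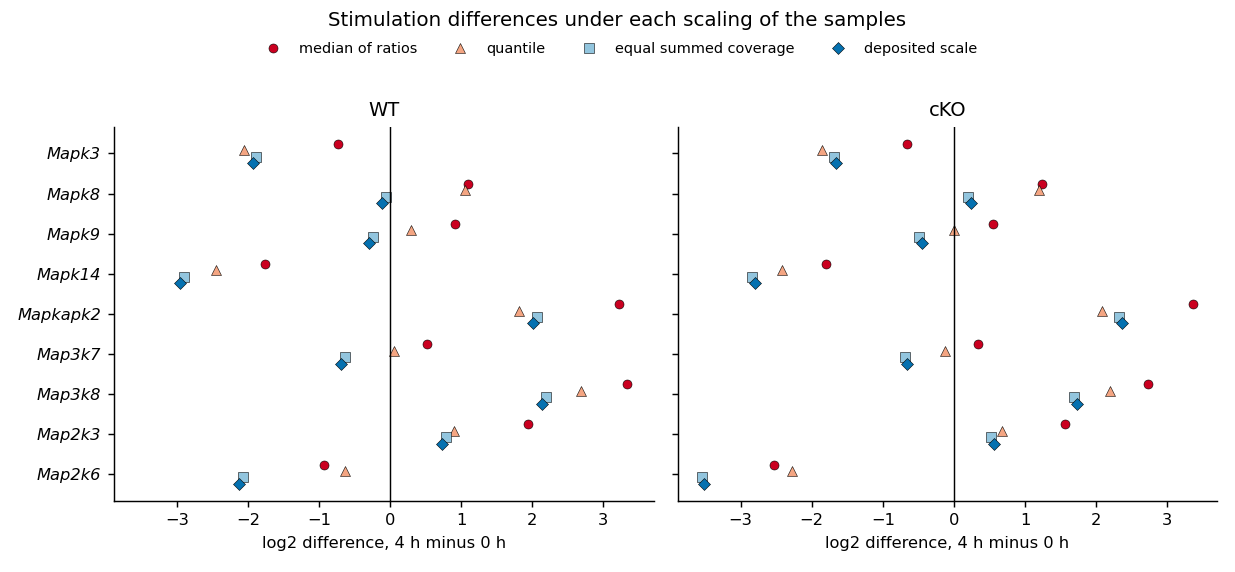
Log2 difference between 4 h and 0 h in WT (left) and cKO (right) for the 9 kinases under 4 ways of scaling the samples, 1 symbol for each. Mapk3, Mapk14 and Map2k6 lie below 0 and Mapkapk2, Map3k8 and Map2k3 above 0 under all 4, while Mapk9 and Map3k7 change sign in both genotypes and Mapk8 in WT.

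Ratios between kinases within a sample do not depend on any factor that scales a whole sample, though quantile normalization would change them. They are given on deposited values and were computed after the values above had been seen. The ratio of Mapk9 to Mapk8 was 3.07 and 3.31 in WT against 4.20 and 4.01 in cKO at 0 h, and at 4 h it was 2.94 and 2.69 in WT against 2.54 and 2.58 in cKO. The cKO samples were thus above WT before stimulation and below WT after it, without overlap. Mapk10, the third JNK gene, was at most 0.0291% of JNK coverage in every sample. The ratio of Map3k8 to Map3k7 rose from 0.631 and 0.628 in WT to 3.67 and 5.42, and from 0.579 and 0.534 in cKO to 3.20 and 2.64. It was lower in cKO than in WT at both times. Map2k3 had 36.4 to 67.7 times the coverage of Map2k6 at 0 h, 393 and 273 times in WT at 4 h, and 1279 and 786 times in cKO at 4 h. Of these 2 genes Map2k3 thus held nearly all coverage, at 0 h and at 4 h.

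The ratio of Mapkapk2 to Mapk14 was 1.72 and 1.74 in WT against 1.68 and 1.504 in cKO at 0 h, and at 4 h it was 63.6 and 45.9 in WT against 59.4 and 54.3 in cKO. It rose in both genotypes, and the samples overlapped at 4 h. Mapkapk2 was 2.498 and 2.65 times its relative Mapkapk3 in WT at 0 h and 2.11 and 2.08 times in cKO. At 4 h it was 13.8 and 12.1 times Mapkapk3 in WT and 15.2 and 15.3 times in cKO. Mapk14 held 98.0 to 98.6% of p38 coverage at 0 h and 81.4 to 83.2% at 4 h. The shares of the others at 4 h differed by genotype. Mapk13 (p38δ) held 15.3 and 14.6% in WT at 4 h and 9.09 and 8.05% in cKO, while Mapk11 (p38β) held 3.27 and 2.76% in WT against 8.39 and 8.23% in cKO. A share can rise because Mapk14 fell, and the coverage of Mapk11 itself went from 19.3 and 19.6 to 9.49 and 9.37 in WT and from 17.9 and 29.6 to 27.9 and 31.3 in cKO, where the times overlapped. No test was made of these ratios and shares.

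**Figure D4:**
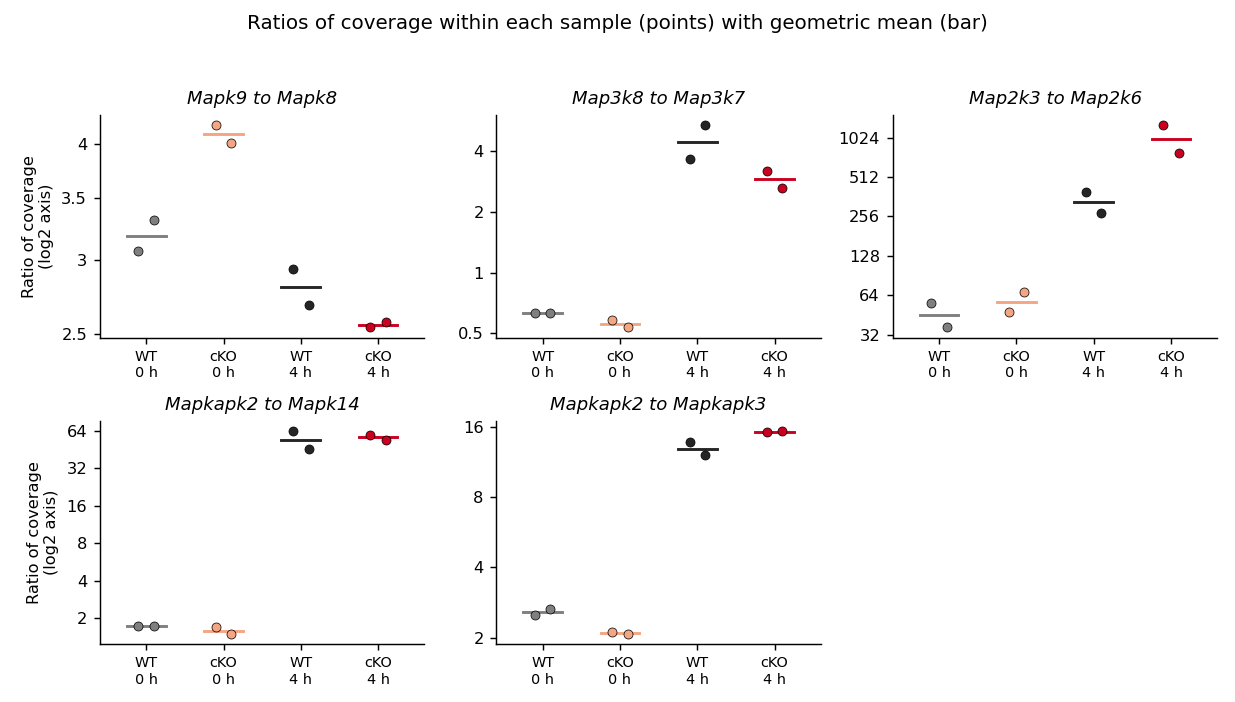
Ratio of the coverage of pairs of kinase genes within each sample (log2 axes), with points for samples and bars for the geometric mean of each group. At 4 h the ratio of Map3k8 to Map3k7 is 3.67 and 5.42 in WT against 3.20 and 2.64 in cKO, and the ratio of Map2k3 to Map2k6 is 393 and 273 in WT against 1279 and 786 in cKO.

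The rest of the cascade was described from a list of 65 genes in 8 tiers, of which 61 were tested at 4 h. In cKO 3 of these were higher and 6 lower at 4 h, and 52 did not pass, where 10.3% of all genes were higher and 9.27% lower. The list had a median of -0.03, against -0.01 over all genes, or 0.28 against 0.31 as deposited. On the deposited scale 15 were higher and 2 lower, against 20.8% and 4.17% of all genes, so the balance of directions depended on the scaling. The 6 lower genes stayed below 0 there, at -0.85 to -0.31, and of these Map3k5 and Mapk13 passed and Map3k14, Tab1, Lamtor3 and Spag9 did not. Without cKO sample 4, 4 genes passed. In the limma fit of the 4 h samples alone none passed an adjusted p of 0.05 relative to the median gene, and Mapk11 did on the deposited scale.

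Among the MAP kinase kinase kinases Map3k5 (ASK1), which acts upstream of p38 and JNK, was lower in cKO at -0.99 ± 0.17, and Map3k14 (NIK), of the alternative NF-κB pathway, at -0.71 ± 0.12. Tab1, the partner of TAK1, was lower at -1.17 ± 0.33, with 20.9 and 31.4 in WT against 17.99 and 11.2 in cKO. It was lower in cKO at 0 h as well, at -0.61 ± 0.16, with 311 and 322 in WT against 193 and 261 in cKO. As deposited the 0 h difference was -0.49 and did not pass. On the deposited scale Map3k11 (0.75), Map3k20 (0.70) and Braf (0.88) passed as higher at 4 h. With stimulation Tab1 fell, at -2.42 in WT and -2.98 in cKO, while Tab2 rose by 2.09 in WT and 2.001 in cKO. Among the MAP kinase kinases, none of 5 passed at 4 h, although Map2k2 and Map2k7 passed as higher on the deposited scale, at 0.73 and 0.83.

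Of the other MAP kinases tested, Mapk13 was lower and Mapk11 higher. Mapk11 had 9.49 and 9.37 in WT at 4 h and 27.9 and 31.3 in cKO, so the cKO samples stood well above WT. The difference was 1.32 ± 0.15 (limma, adjusted p = 0.0735), or 1.64 on the deposited scale (adjusted p = 0.0438), and its interaction of 1.19 ± 0.32 passed as well. Mapk13 had 44.6 and 49.5 in WT against 30.2 and 30.6 in cKO, at -0.95 ± 0.10 (adjusted p = 0.0704). None of 9 kinases downstream of the MAP kinases and none of 8 substrates passed at 4 h. On the deposited scale Mknk2 (0.87) and Atf1 (0.69) passed as higher.

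Among the scaffolds Spag9 (JIP4), which binds JNK and p38, and Lamtor3 (MP1), which binds MEK1 and ERK1, were lower at 4 h and Ksr1, a scaffold of the ERK pathway, was higher. Spag9 had 1330 and 1409 in WT against 2002 and 2134 in cKO at 0 h, and 1356 and 1340 in WT against 1021 and 983 in cKO at 4 h. It was thus above WT before stimulation and below it after. Lamtor3 had 1618 and 1473 in WT against 1919 and 2143 in cKO at 0 h, and 899 and 979 in WT against 766 and 748 in cKO at 4 h. For the interaction 3 genes of the list passed as higher and 5 as lower of 61 tested, against 8.83% and 7% of all genes. The higher ones were Mapk11, Ksr1 (1.098) and Dusp6 (0.93), and the lower ones Map3k5 (-0.74), Tnip2 (-0.73), Dusp16 (-0.61), Spag9 and Lamtor3. As deposited, 7 passed as higher and 2 as lower, against 13.5% and 4.05% of all genes, and Map3k5, Tnip2 and Dusp16 did not pass, at -0.54, -0.52 and -0.41. The interaction was -1.23 ± 0.15 for Spag9 and -0.91 ± 0.13 for Lamtor3. Of 61 genes of the list these 2 alone passed an adjusted p of 0.05 for it (limma, adjusted p = 0.0294 and 0.0408), as did 2.71% of all genes. On the deposited scale Spag9 kept this call (-1.02, adjusted p = 0.0308) and Lamtor3 lost it (-0.70, adjusted p = 0.089).

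The largest rises of the list with stimulation were among the phosphatases that end MAP kinase signalling. Of 10, 5 rose and 2 fell in WT and 6 rose and 2 fell in cKO, where 28.4% of all genes rose in either genotype and 26.4% fell in WT and 26.9% in cKO. Dusp2 (PAC-1) had 170 and 137 in WT against 191 and 122 in cKO at 0 h, and 9461 and 8275 in WT against 13387 and 14490 in cKO at 4 h, a rise of 7.06 ± 0.23 in WT and 7.51 ± 0.33 in cKO. Dusp16, which acts on JNK and p38, rose by 4.85 in WT against 4.24 in cKO, and Dusp5, which acts on ERK, by 4.68 and 4.59. Each kept its sign in both genotypes under the 4 scalings. Between the genotypes, Dusp8 was higher in cKO at 4 h at 1.36 ± 0.33 and Dusp4 at 0 h at 1.26 ± 0.12. Dusp4 had 232 and 232 in WT at 0 h and 542 and 675 in cKO. At 4 h it had 1235 and 952 in WT against 2063 and 2468 in cKO. That difference did not pass at 0.73 ± 0.28, but did on the deposited scale at 1.06.

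At 0 h 5 genes of the list were higher in cKO and 2 lower, and on the deposited scale 8 and 1. Of all genes 6.98% were higher and 7.51% lower at 0 h, and 8.99% and 5.61% on the deposited scale. Without cKO sample 3, 4 passed, and without cKO sample 4, 3 passed. Beside Dusp4 the higher ones were Braf, a kinase kinase kinase for ERK, at 0.73 ± 0.15, Rps6ka3 (RSK2) at 0.63 ± 0.14, Dusp9 at 0.77 ± 0.11 and Atf1 at 0.62 ± 0.16, and the lower ones Tab1 and Mapk8ip1 (-1.35 ± 0.27). With stimulation 25 genes of the list rose and 15 fell in WT of 60 tested, and 25 rose and 17 fell in cKO of 61. The shares of all genes were the 28.4% and 26.4% given above for WT and 28.4% and 26.9% for cKO. On the deposited scale 16 rose and 32 fell in WT and 15 rose and 34 fell in cKO. Nfkb1, whose product p105 holds TPL2, rose by 3.82 ± 0.20 in WT and 4.07 ± 0.14 in cKO. Zfp36 rose by 3.72 ± 0.13 and 3.40 ± 0.14. Like Map3k8 and Mapkapk2, these kept their sign under the 4 scalings.

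The other tiers held genes of either direction with stimulation. Of 12 kinase kinase kinases 3 rose and 3 fell in WT and 3 rose and 4 fell in cKO. Map3k1 (MEKK1) was at -2.02 in WT against -2.34 in cKO, Map3k4 (MEKK4) at -2.35 and -2.21, and Map3k5 rose by 2.16 and 1.42. Of 5 MAP kinase kinases 2 rose in WT, Map2k4 (MKK4) by 1.98 and Map2k1 (MEK1) by 1.95. In cKO 3 rose and 1 fell, with Map2k1 at 2.26, Map2k4 at 1.65 and Map2k2 (MEK2) at 0.70. Among the partners Tnip2, which binds p105 and TPL2, rose by 2.17 in WT. Of the other MAP kinases Mapk13 rose by 3.14 in WT against 2.66 in cKO and Mapk6 (ERK3) by 2.15 and 1.82, while Nlk was at -1.53 in WT and Mapk7 (ERK5) at -1.38 in cKO. Of 9 downstream kinases 5 rose and 3 fell in WT and 4 rose and 3 fell in cKO. Mknk2 (MNK2) was at -2.87 in WT against -2.41 in cKO, Rps6ka2 (RSK3) rose by 2.21 and 2.203, Rps6ka5 (MSK1) rose by 1.83 in WT and Mknk1 was at -1.85 in cKO. The scaffold Ksr1 was at -2.51 in WT against -1.41 in cKO, and in WT Mapk8ip1 was at -2.32 and Spag9 at 1.18. Of the substrates Zfp36l1, a relative of tristetraprolin, was at -1.93 in WT against -1.67 in cKO and Jun at -0.95 and -0.97. On the deposited scale Spag9 in WT was at -0.02 and Map2k2 in cKO at -0.30, and the other genes of this paragraph kept their sign under the 4 scalings.

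**Figure D5:**
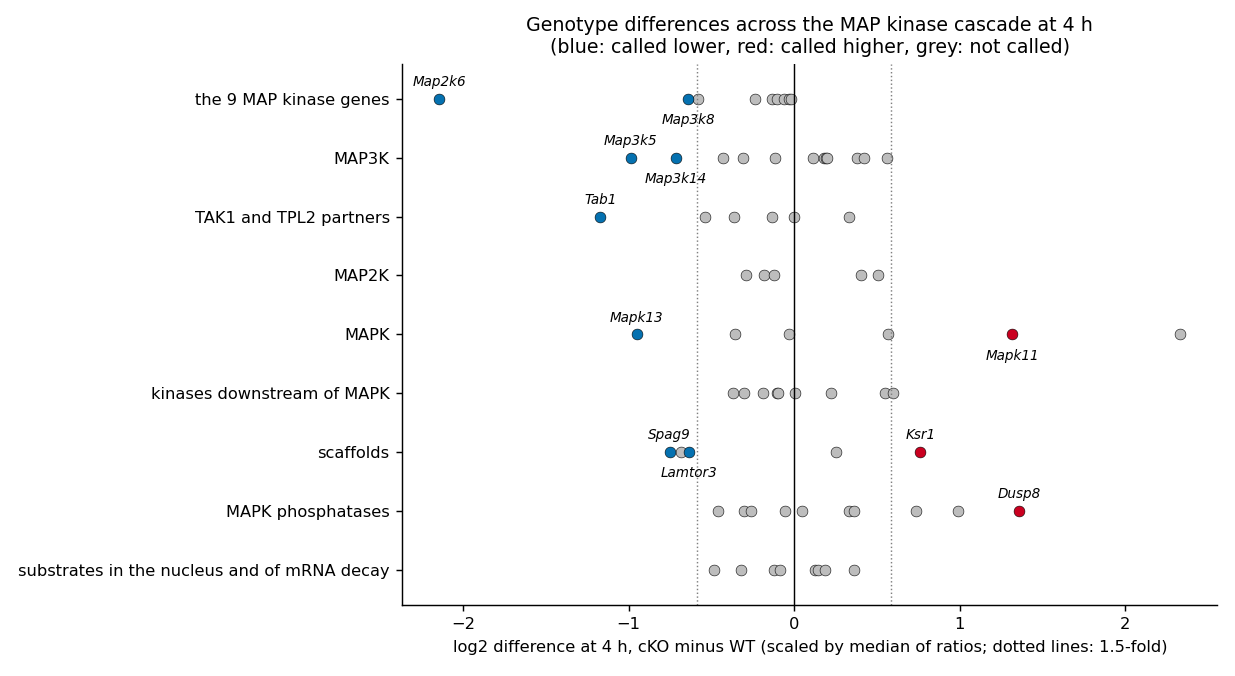
Log2 difference between cKO and WT at 4 h, scaled by the median of ratios, for the 9 kinases (top) and the tested genes of the 8 other tiers of the cascade. Each point is a gene, coloured blue where it passed as lower, red where it passed as higher and grey where it did not pass. The 6 genes of the list that passed as lower lie between -1.17 and -0.63, and the 3 that passed as higher between 0.76 and 1.36.

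The promoters of 7 of the kinases, 11 promoters in all, were in the RefSeq table of GRCm38.p6, which holds the 250 bases before and 50 after each start. Mapk3 and Map3k8 were not in it. The 3 motifs searched on both strands were chosen because their factors act in this response. They were the κB consensus of NF-κB, TTCNNNGAA of STAT factors and TGANTCA, a loose form of the AP-1 site open to any central base. Each was found in 1 of the 11 promoters and in 4.51%, 8.3% and 7.81% of all 32851 promoters. The matches were in different genes, so none overlapped another. None was in the promoters of Mapkapk2 and Map2k3, the kinases of the table that rose with stimulation and kept their sign under the 4 scalings. The match in Map2k6, which differed most between the genotypes, lies in 1 of its 3 promoters, at chr11:110398852-110399151. The central base of this match is T, and binding of AP-1 to it was not tested. It is shown in the window chr11:110398859-110398888 on the plus strand, with the motif in capitals.
Map2k6: ctctaagctgtTGATTCAggggtttttcta

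The gene most like each kinase over the 8 samples was sought among 11921 genes by Pearson's r of the scaled coverage. It was Hat1 for Map3k8, Pnp for Mapkapk2, St7 for Map2k3, Dolpp1 for Mapk14, Mrm1 for Mapk3, Syp for Map2k6 and Rnf121 for Map3k7, with r of 0.990 to 0.9995 over 8 samples. The points share their time of stimulation, which sets most of each r. For Mapk8 and Mapk9, the most alike genes by scaled coverage, Gm19684 and Riok3, were not alike on deposited values (r = 0.33 and -0.27). At 4 h St7 had 1076 and 1096 in WT against 531 and 528 in cKO, and Syp had 9.17 and 13.9 in WT against 3.45 and 5.85 in cKO.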

How the data were processed

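RNA-seq values of 8 BMDM samples were analysed, 2 for each genotype and time, grouped by title. Although the labels list IFNγ/LPS for every sample, those titled 0 h were treated as unstimulated. The authors aligned reads to GRCm38 with HISAT2 2.2.1, quantified RefSeq genes with StringTie 2.1.7 and deposited 1 signal per gene and sample, read here as coverage (mean reads per base), with a table for each time. The kit does not mark strand. Read counts are not given, so no count test or counting interval was possible. The deposited tables also hold the authors' fold changes and p-values, which were not used, and no sample column was left unused (0 columns).

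Coverage was scaled between samples by the median of ratios. limma 3.58.1 (R 4.3.3) was run on log2(scaled coverage + 0.1) for genes whose scaled coverage averaged 0.5 or more over the compared samples. The added 0.1 understates changes of low genes. Calls needed more than 1.5-fold and an unadjusted p below 0.05, with Benjamini-Hochberg adjusted p-values over all tested genes beside it. The comparisons were cKO with WT at each time, 4 h with 0 h in each genotype, and their interaction over the 8 samples. In simulated data with a log2 change of 1, 72.4% of 199 changed genes were called in the genotype comparison at 4 h over 15319 genes, and 3.55% of unchanged genes. The smallest exact p for 2 against 2 samples is 0.333.

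1 gene of the pathway list is not reported here and was left out of its counts. The 9 kinases, the pathway list and the marker lists were chosen with earlier results of these data known. Genes of the pathway list were named where they passed, at most 3 per tier and comparison by size, with each kinase in every sample and 1 most alike gene for each. Mapkapk3, Mapk10 and Mapk13 in ratios and shares, Tab2 in WT, and genes of the list that passed only on the deposited scale, were named after their values were seen. Alternatives covered the scaling (deposited, equal summed coverage, quantile), a pseudocount of 1, no filter and a filter of 5, a fit over all 4 groups, a replicate block, an adjusted p and leaving out each sample.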

Additional observations from a re-analysis of the deposited data

Results flagged for a closer look

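For 2 of the 9 kinases the genotype difference changed between 0 h and 4 h by more than 1.5-fold with an unadjusted p under 0.05 in a test of the difference itself, the interaction in limma over 8 samples. For Map2k6 the interaction was -1.61 on the log2 scale (adjusted p = 0.152), and for Map3k8 it was -0.61 (adjusted p = 0.146). Over all alternatives that keep every sample the adjusted p ranged from 0.107 to 0.244 for Map2k6 and from 0.102 to 0.344 for Map3k8. Map3k8 lost the call under each of the 3 other scalings, at -0.40 to -0.49, and each kinase lost it in 4 of the 8 fits that leave out a sample. Neither passed an adjusted p of 0.05, and 15.8% of all genes passed the unadjusted threshold.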

How the results depend on the processing

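Of 378 values of single kinases under alternatives that kept every sample, 327 kept their sign and their side of the threshold, 15 lost and 7 gained a call and 29 changed sign, none of these with a pseudocount of 1, no filter, a filter of 5, a fit over all 4 groups, the replicate block or an adjusted p. No kinase passed at 0 h under any setting. At 4 h, 1 kinase passed between genotypes on the deposited scale, with equal summed coverage and with quantile normalization, 0 with an adjusted p of 0.05, and 1 to 2 leaving out a sample. For the interaction these counts were again 1, 1 and 1, then 0, and 0 to 2 leaving out a sample.

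Of the other pathway genes at 4 h, 17 passed on the deposited scale, 0 with an adjusted p, and 4 to 11 leaving out a sample. At 0 h 4 passed with all groups in 1 fit, 0 with an adjusted p and 3 to 7 leaving out a sample, and 2 passed the interaction with an adjusted p. Of all genes, 239 passed with an adjusted p at 4 h, 193 at 0 h and 437 for the interaction.

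Keeping the deposited scale or equalising summed coverage moves every gene of a sample by nearly the same log2 amount, and the sign changes under these follow from that. For quantile normalization the cause was not tested. Between genotypes at 4 h, the deposited scale gave 0.29 for Mapk3, 0.22 for Mapk8, 0.086 for Mapk9, 0.19 for Mapk14, 0.26 for Mapkapk2 and 0.30 for Map3k7. Equal summed coverage gave 0.079 for Mapk3, 0.0093 for Mapk8, 0.051 for Mapkapk2 and 0.0905 for Map3k7, and quantile normalization 0.039 for Mapk3. At 0 h the deposited scale gave 0.012 for Mapk3, 0.029 for Mapk14 and 0.086 for Map3k8. For stimulation in WT the deposited scale gave -0.11 for Mapk8, -0.30 for Mapk9 and -0.69 for Map3k7, and equal summed coverage -0.063, -0.25 and -0.64. In cKO the deposited scale gave -0.45 for Mapk9 and -0.65 for Map3k7, equal summed coverage -0.49 and -0.69, and quantile normalization -0.0028 and -0.13. For the interaction the deposited scale gave 0.16 for Mapk14 and 0.037 for Map3k7, and equal summed coverage 0.073 for Mapk14.

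Leaving out a sample in turn, the genotype difference at 4 h ran from -0.11 to 0.042 for Mapk3, -0.28 to 0.15 for Mapkapk2 and -0.28 to 0.24 for Map3k7, and at 0 h from -0.11 to 0.042 for Map3k8. The interaction ran from -0.00023 to 0.15 for Mapk3, -0.15 to 0.065 for Mapk14, -0.068 to 0.36 for Mapkapk2 and -0.43 to 0.092 for Map3k7. A lone sample left in a group was assumed to vary like the other group.

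The replicate numbers recur at both times within a genotype, but deviations of samples with the same number hardly correlated (r = 0.022 in WT and 0.026 in cKO across 16122 genes, which are not independent replicates), so the numbers were not taken as pairs. With the replicate block, 8 kinases passed with stimulation in WT and 7 in cKO, and 8392 and 8645 genes in all. The gain was Map2k6 in WT (-0.93). For the interaction 2 kinases passed with the block. No paired analysis was possible between genotypes because WT and cKO share no number.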
